A study of Homo sapiens with 4 samples.

Results

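The ephrins and Eph receptors are described here in the AGS cell line, derived from a human gastric adenocarcinoma, after 36 h with 0.01% ornithogalum or with ethanol. Ornithogalum is a homeopathic formulation, and ethanol was its vehicle. Total RNA was hybridised to Affymetrix Human Gene 1.0 ST arrays, with 2 biological replicates of ornithogalum-treated cells and 2 of vehicle-treated cells, all grown in serum-containing medium in multiwell plates. The genes were chosen by name, as transcript clusters (probe sets that each cover 1 transcript locus) which the platform annotation pairs with exactly 1 of 10 symbols. Of these, 9 had such a cluster, 1 cluster each, among 18417 genes with a cluster of 1 symbol, and EPHB2 was not analysed here. All values are the log2 expression values deposited by the authors, so a difference of 1 is a doubling of signal, and levels are compared between groups for each gene but not between genes.

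Eph receptors form the largest family of receptor tyrosine kinases, and their ligands, the ephrins, are themselves anchored in the membrane of the neighbouring cell. Ephrin-A ligands are held by a lipid anchor and mostly bind EphA receptors, whereas ephrin-B ligands span the membrane and mostly bind EphB receptors. Contact sends a forward signal into the cell with the receptor and a reverse signal into the cell with the ephrin, and both act on adhesion, repulsion and the actin skeleton. In gut epithelium, EphB receptors and ephrin-B ligands help to keep cells in their place along the crypt, and EPHA2 with its ligand ephrin-A1 is much studied in epithelial cancers.

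In ornithogalum-treated cells the ligand gene EFNA1 and the receptor gene EPHA2 rose, while the ligand gene EFNB2 and the receptor genes EPHA1 and EPHB4 fell. EPHA2 rose 4.19-fold and EFNA1 2.88-fold, and the falls were 1.97-fold for EPHA1, 1.81-fold for EFNB2 and 1.51-fold for EPHB4. These 5 of 9 measured genes passed limma's test at an adjusted p under 0.05, 2 higher and 3 lower. The genes were chosen with earlier results of these data known, and of all 21 measured genes of the family the same 5 passed (23.8%). Over all 21214 clusters tested, 19.2% passed, 6.57% higher and 12.6% lower. When only the 10607 brighter clusters were fitted, 45.6% passed, and of the 7 genes kept there 2 were higher and 4 lower. The median log2 difference was 0.07 over the 9 genes and 0.04 over all clusters. The groups did not overlap in 7 of the 9 genes, against 62.2% of all clusters. Centring each array on its median moved the median difference of all clusters to 0.20 and gave 2238 clusters higher and 1898 lower, against 1393 higher and 2683 lower on the deposited values. After centring EPHA2, EFNA1, EFNB2 and EPHA1 were called in the same directions, whereas EPHB4, with a log2 difference of -0.44, was not called.

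**Figure D1:**
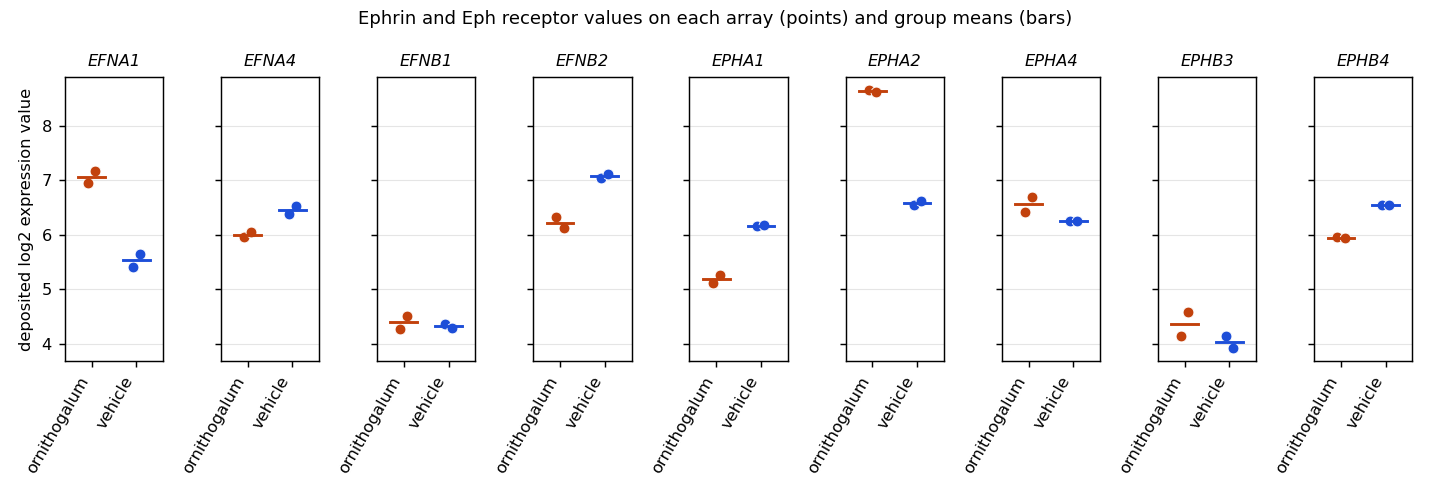
Deposited log2 expression values of the 9 measured ephrin and Eph receptor genes, with ornithogalum on the left and vehicle on the right of each panel, a point per array and a bar at the group mean of 2 arrays. EPHA2, EFNA1 and, by less, EPHA4 lie higher on both ornithogalum arrays, EFNA4, EFNB2, EPHA1 and EPHB4 lie lower, and EFNB1 and EPHB3 overlap.

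EFNA1 encodes ephrin-A1, an EphA ligand first found as a gene induced by tumour necrosis factor. It had log2 values of 6.95 and 7.17 with ornithogalum, against 5.41 and 5.65 with vehicle. Both treated arrays lay above both vehicle arrays by far more than the arrays of a group differed from each other. The means were 7.06 ± 0.15 with ornithogalum and 5.53 ± 0.17 with vehicle (SD, n = 2 arrays each), a log2 difference of 1.53 (SE 0.15, adjusted p = 0.00485 by limma). Of all clusters tested, 0.57% had a rise at least as large.

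EFNA4 and EFNA3 encode further ephrin-A ligands, and RefSeq places EFNA4, EFNA3 and EFNA1 next to each other in this order on chromosome 1. EFNA4 had 5.96 and 6.05 with ornithogalum, against 6.39 and 6.53 with vehicle. The groups were apart, but the log2 difference of -0.46 (SE 0.12, 95% interval -0.77 to -0.15) did not pass over all clusters (limma adjusted p = 0.0593). EFNA3, which was not among the 10 symbols, had 5.45 and 5.45 with ornithogalum, against 5.86 and 5.93 with vehicle, and its log2 difference of -0.44 also missed the threshold (limma adjusted p = 0.0513). RefSeq lists a read-through locus that joins EFNA4 to EFNA3 and another that joins ADAM15 to EFNA4, so signal of these 2 ligand genes could be shared. The difference between EFNA1 and EFNA3 within an array, from which any constant of that array cancels, was 1.50 and 1.72 with ornithogalum, against -0.45 and -0.27 with vehicle. Its mean was thus 1.97 higher on the log2 scale in treated cells. For EFNA1 and EFNA4 the same within-array quantity was 1.99 higher. These pairs were taken after the values of the 3 genes were seen, so the within-array differences are a description.

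EFNB2 encodes ephrin-B2, a transmembrane ligand of EPHB4 that marks arterial endothelium in vessels. It had 6.33 and 6.12 on the ornithogalum arrays, against 7.04 and 7.12 on the vehicle arrays. Both treated arrays lay below both vehicle arrays. The means were 6.23 ± 0.15 with ornithogalum and 7.08 ± 0.06 with vehicle (SD, n = 2 each), a log2 difference of -0.85 (SE 0.13, limma adjusted p = 0.0137). EFNB1, the gene of the related ligand ephrin-B1, had 4.27 and 4.52 with ornithogalum, against 4.36 and 4.30 with vehicle, and the groups overlapped. Its log2 difference was 0.07, with a 95% interval of -0.28 to 0.41 (limma adjusted p = 0.767), and without ornithogalum replicate 2 it was -0.06.

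EPHA2 encodes the receptor for which ephrin-A1 is a main ligand. It had 8.66 and 8.63 with ornithogalum, against 6.54 and 6.61 with vehicle, and the gap between the groups was many times the gap within them. The means were 8.64 ± 0.02 with ornithogalum and 6.58 ± 0.05 with vehicle (SD, n = 2 each), a log2 difference of 2.07 (SE 0.11, 95% interval 1.78 to 2.35, limma adjusted p = 0.00336). Of all 21214 clusters, 29 had a rise at least this large, EPHA2 included, which is 0.137%.

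The sequence just before the start of EPHA2 and EFNA1 is shown because this receptor and ligand pair rose together. Promoters came from RefSeq, which held all 10 symbols, and the 250 bases before the annotated start are printed. Capitals mark matches on either strand to any of 6 motifs searched, namely the AP-1 motif TGANTCA, the cyclic AMP response element TGACGTCA, the TCF/LEF motif TCAAAG, the E-box CACGTG, the GC box GGGCGG and the TATA motif TATAAA.
EPHA2 (GRCh38.p14, chr1:16156070-16156319, minus strand): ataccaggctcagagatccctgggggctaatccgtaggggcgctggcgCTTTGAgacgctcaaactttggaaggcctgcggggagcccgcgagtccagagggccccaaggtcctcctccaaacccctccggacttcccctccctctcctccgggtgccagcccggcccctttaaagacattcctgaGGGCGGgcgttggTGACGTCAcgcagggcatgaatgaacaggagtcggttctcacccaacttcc
EFNA1 (GRCh38.p14, chr1:155127626-155127875, plus strand): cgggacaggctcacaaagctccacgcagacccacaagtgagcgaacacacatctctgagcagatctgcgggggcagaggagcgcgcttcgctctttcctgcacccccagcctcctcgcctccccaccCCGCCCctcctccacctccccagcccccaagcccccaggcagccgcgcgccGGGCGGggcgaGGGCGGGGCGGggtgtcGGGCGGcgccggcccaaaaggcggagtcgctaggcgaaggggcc
The EPHA2 window holds the cyclic AMP response element, whose first base lies 51 bases before the start, a GC box at 64 bases and a TCF/LEF match at 202 bases. Among 34943 promoter windows of this length, 1.63% hold the cyclic AMP response element, 11.2% the TCF/LEF motif and 42.5% the GC box. The EFNA1 window holds 5 GC boxes, 2 of which overlap, and no match to the other motifs, so the pair shares the GC box. These matches describe the letters and say nothing of binding.

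EPHA1, the first member of the receptor family to be described, went the other way from EPHA2. It had 5.12 and 5.26 with ornithogalum, against 6.15 and 6.19 with vehicle, and both treated arrays lay lower by about 1 log2 unit. The means were 5.19 ± 0.10 with ornithogalum and 6.17 ± 0.02 with vehicle (SD, n = 2 each), a log2 difference of -0.98 (SE 0.12, limma adjusted p = 0.00751).

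EPHA4 encodes a receptor that binds ephrins of both classes. It had 6.43 and 6.70 with ornithogalum, against 6.25 and 6.25 with vehicle. The treated arrays were higher but differed from each other by about as much as from the vehicle arrays, and the log2 difference of 0.32 (SE 0.14, 95% interval -0.04 to 0.67) did not pass (limma adjusted p = 0.185).

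EPHB4 encodes a receptor for ephrin-B2, known from venous endothelium and present in many epithelial tumours. It had 5.95 and 5.94 with ornithogalum, against 6.55 and 6.54 with vehicle. The arrays of each group were nearly identical and the groups were apart. The means were 5.95 ± 0.01 with ornithogalum and 6.55 ± 0.01 with vehicle (SD, n = 2 each), a log2 difference of -0.60 (SE 0.11, limma adjusted p = 0.0220). EPHB3, a crypt receptor and known Wnt target, had 4.14 and 4.59 with ornithogalum, against 4.14 and 3.91 with vehicle, and the first array of each group carried the same value. This value, 4.14467, also stands on the first ornithogalum array for PSEN2 and RPS6KA2, and the reason was not tested. The log2 difference of EPHB3, 0.34, had a 95% interval of -0.15 to 0.82 (limma adjusted p = 0.285).

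EFNB2 and EPHB4 are a ligand and receptor pair that fell together, and their sequences before the start are printed for comparison with those of the rising pair, with the same motifs in capitals.
EPHB4 (GRCh38.p14, chr7:100827524-100827773, minus strand): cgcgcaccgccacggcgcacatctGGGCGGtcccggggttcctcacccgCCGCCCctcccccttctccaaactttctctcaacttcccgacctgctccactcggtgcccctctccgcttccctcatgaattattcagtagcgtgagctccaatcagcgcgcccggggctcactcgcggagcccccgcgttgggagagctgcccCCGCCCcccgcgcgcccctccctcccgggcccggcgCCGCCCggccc
EFNB2 (GRCh38.p14, chr13:106535663-106535912, minus strand): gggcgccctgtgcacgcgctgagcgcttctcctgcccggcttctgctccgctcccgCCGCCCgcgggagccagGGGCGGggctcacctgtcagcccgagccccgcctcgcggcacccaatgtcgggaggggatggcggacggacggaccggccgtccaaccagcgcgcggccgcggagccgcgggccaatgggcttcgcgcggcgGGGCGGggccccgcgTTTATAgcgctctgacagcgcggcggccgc
The EPHB4 window holds 4 GC boxes and none of the other 5 motifs. The EFNB2 window holds 3 GC boxes and a TATA match 30 bases before the start, a motif found in 10.8% of promoter windows. The cyclic AMP response element of the EPHA2 window is in neither, and GC boxes are in all 4, so the motifs searched do not separate the pair that rose from the pair that fell.

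The calls rest on few arrays and on the vehicle pair. Without vehicle replicate 1, limma called 0 of 21214 clusters, with 4192 at an unadjusted p under 0.05, among them 6 of the 9 genes, and without vehicle replicate 2 it called 0, with 3986 and 5 of the 9. The log2 differences of the 5 called genes kept their direction in the 7 of 17 alternative settings that move a difference (an array left out or another scaling), and over these they ran from 2.03 to 2.23 for EPHA2, 1.41 to 1.69 for EFNA1, -1.05 to -0.82 for EPHA1, -0.96 to -0.69 for EFNB2 and -0.60 to -0.44 for EPHB4. EPHB4 was the least secure of them and was not called in 7 of the 17, among them the fit over all 33297 clusters of the table (limma adjusted p = 0.0586) and the fit with the replicate number as a block (limma adjusted p = 0.0508).

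**Figure D2:**
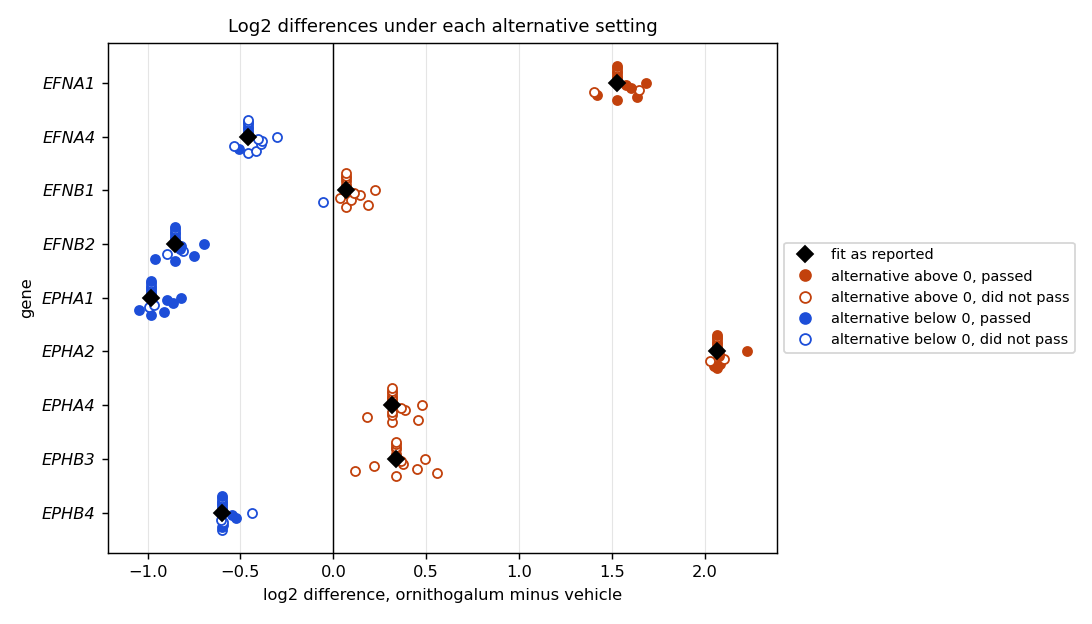
Log2 difference of each measured gene, ornithogalum minus vehicle, as reported (black diamonds) and under each alternative setting other than the changed thresholds (circles, filled where limma's or the unmoderated adjusted p was under 0.05). EPHA2 and EFNA1 stay right of 0, EPHA1, EFNB2, EPHB4 and EFNA4 stay left of it, and EFNB1 lies on both sides.

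Of 12 other genes of the family measured, 8 receptor genes and 4 ephrin genes, 0 passed at an adjusted p under 0.05 by limma and 1, EFNA3, had an unadjusted p under 0.05, beside the 19.2% of all clusters that were called. Their log2 differences ran from -0.44 for EFNA3 to 0.27 for EPHB6, a receptor whose kinase is inactive, and their median was 0.03. EFNA3 was called lower in 5 of the 17 alternatives. Most of these other genes were dim, and with brighter clusters only 1 receptor gene and 2 ephrin genes were kept. Of those EFNA3 alone was called, where 45.6% of all brighter clusters were. The groups did not overlap in 3 of the 12, EFNA3, EPHA10 and EPHB6. EPHA10, also without an active kinase, had 2 clusters, with log2 differences of -0.11 and 0.25. The brain-rich receptor genes EPHA3, EPHA5, EPHA6 and EPHA7 had log2 values between 2.05 and 2.96 on all 4 arrays. Without ornithogalum replicate 2, whose removal raised the calls over all clusters to 7058, 1 of these receptor genes (EPHA7) was called higher and 1 ephrin gene (EFNA3) lower.

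**Figure D3:**
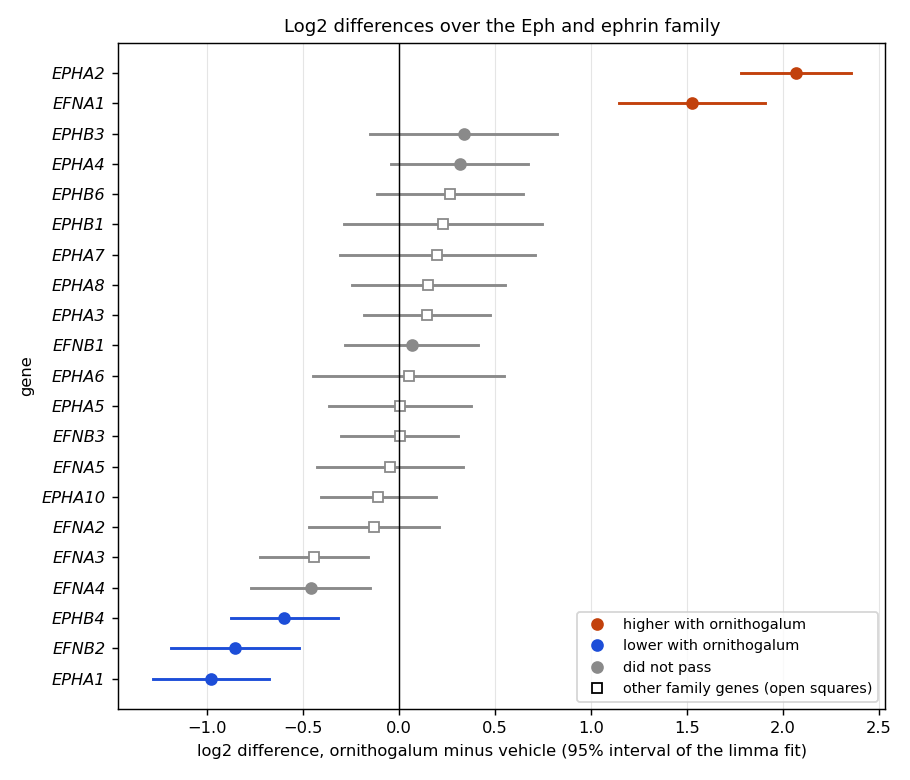
Log2 differences, ornithogalum minus vehicle, with limma's 95% intervals for the 21 measured genes of the family, filled circles for the 9 genes described and open squares for the other 12. EPHA2 and EFNA1 stand apart at 2.07 and 1.53, and EPHA1, EFNB2 and EPHB4 lie lowest.

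The counts in the lists below are read against the 19.2% of all clusters that were called, 6.57% higher and 12.6% lower. That share moved with the setting, to 15.6% with the replicate block, 19.5% after median centring and 7.94% when all clusters of the table were fitted. Without ornithogalum replicate 2 more of all clusters were called too, so list counts under that setting are not read as changes of a list. Of 21 measured adaptors and kinases of the forward signal, 4 rose and 3 fell (33.3% called), with a median log2 difference of -0.01 against 0.04 over all clusters. With brighter clusters only, 5 of 20 rose and 3 fell, where 45.6% of all brighter clusters were called. GRB7, an adaptor that binds several receptor tyrosine kinases, had 7.02 and 7.15 with ornithogalum, against 5.98 and 5.95 with vehicle, and rose 2.18-fold (limma adjusted p = 0.00558). ABL2, a kinase of the actin skeleton, rose 1.92-fold. PIK3R1, the regulatory subunit of phosphoinositide 3-kinase, had 5.93 and 6.04 with ornithogalum, against 7.59 and 7.53 with vehicle, and fell 2.99-fold. The Src-family kinase gene LYN fell 1.77-fold, whereas its relative YES1 rose 1.43-fold (limma adjusted p = 0.0449). The relatives SRC and FYN did not pass, with log2 differences of -0.55 and 0.13. FYN was dim, at 2.59 and 2.55 with ornithogalum, against 2.38 and 2.49 with vehicle. Without ornithogalum replicate 2, 3 adaptors and kinases were higher and 6 lower, and with the replicate block 2 were higher. After median centring the median of the list was 0.15.

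Of 15 measured partners of the ephrins' reverse signal, 2 rose and 2 fell, with a median of -0.08. The share called, 26.7%, was near the 19.2% of all clusters. SDCBP, the scaffold syntenin that binds the tail of ephrin-B ligands, rose 1.51-fold, with 9.24 and 9.15 under ornithogalum against 8.52 and 8.68 under vehicle. PARD6B, a polarity gene, rose 1.51-fold, while DOCK1, an activator of Rac, fell 2.13-fold and the tight junction gene TJP1 1.58-fold. NCK2, an adaptor of ephrin-B reverse signalling that was counted above, fell 1.54-fold. With the replicate number as a block 0 of this list rose and 3 fell, and when all clusters of the table were fitted 0 rose and 1 fell. Without ornithogalum replicate 1, 1 rose and 3 fell, and without replicate 2, 3 rose and 3 fell. The median of this list was 0.08 after median centring.

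Among proteases that cut Eph receptors and ephrins, ADAM10, which sheds ephrins on contact, had 9.44 and 9.44 with ornithogalum, against 9.40 and 9.41 with vehicle, a log2 difference of 0.03. Of 12 proteases measured, 0 rose and 3 fell, a share of 25% near the 19.2% of all clusters, and all 3 were components of gamma-secretase, the complex that cleaves ephrin-B stubs within the membrane. PSEN2 fell 1.66-fold, with 4.14 and 4.27 under ornithogalum against 4.99 and 4.88 under vehicle, APH1A fell 1.49-fold and NCSTN 1.46-fold. The remaining subunit measured, PSENEN, had 10.22 and 9.49 with ornithogalum, against 10.07 and 10.18 with vehicle, and the groups overlapped. After median centring 1 of these genes was called lower, as with the replicate block and over all clusters of the table.

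Among genes of receptor turnover, 1 of 14 measured rose and 3 fell, 28.6% against 19.2% of all clusters. CBL, a ubiquitin ligase that marks activated EPHA2 for degradation, had 7.87 and 7.64 with ornithogalum, against 6.60 and 6.72 with vehicle, and rose 2.14-fold (limma adjusted p = 0.0080). Its relative CBLB went the other way and fell 1.47-fold. DNM2, the dynamin of endocytosis, fell 1.59-fold, and PTPRF, a receptor phosphatase, fell 1.90-fold. Without ornithogalum replicate 2, 2 genes of this list were higher, and after median centring 1 was lower. Of 7 measured kinases of the serine site of EPHA2 and their relatives, 0 rose and 2 fell, likewise 28.6%. AKT1 had 7.09 and 7.34 with ornithogalum, against 8.02 and 8.24 with vehicle, and fell 1.88-fold, and PRKACB, a catalytic subunit of protein kinase A, fell 2.01-fold. RPS6KA1, a ribosomal S6 kinase gene, had a log2 difference of 0.17 and did not pass, and RPS6KA3, with a log2 difference of 0.50, did not pass either (limma adjusted p = 0.0598). Among the alternatives that keep all 4 arrays, RPS6KA3 was called higher after median centring and with brighter clusters only. It was also called higher with an intensity trend with or without a robust prior, and at a threshold of 0.10.

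Adhesion and co-receptor genes that Eph signalling touches changed in 6 of 14 measured, 2 higher and 4 lower, 42.9% against 19.2% of all clusters. With brighter clusters only, 2 of 12 rose and 4 fell, where 45.6% of all brighter clusters were called, so no excess is read from the list. The integrin gene ITGB1 rose 1.75-fold and the epidermal growth factor receptor gene EGFR 1.68-fold, while ERBB2 fell 1.79-fold and L1CAM, a neural adhesion gene, 1.87-fold. CDH1, the E-cadherin gene, had 5.57 and 5.93 with ornithogalum, against 6.13 and 6.04 with vehicle, and did not pass. When all clusters of the table were fitted, 1 of these genes was higher and 0 were lower, and after median centring 2 were lower. EPHB2 and EPHB3 are known Wnt targets of the crypt, and of 17 other Wnt targets measured 4 rose and 5 fell, 52.9% against 19.2%. With brighter clusters only, 3 of 12 Wnt targets rose and 6 fell, beside 45.6% of all brighter clusters. Without ornithogalum replicate 2, 4 rose and 7 fell. LGR5, the crypt stem cell marker, had 7.47 and 7.45 with ornithogalum, against 9.84 and 9.81 with vehicle, a fall of 5.17-fold. TNFRSF19 fell 3.27-fold and AXIN2, a feedback inhibitor of the pathway, 3.06-fold, while MYC rose 2.36-fold and EPHB3 did not pass. After median centring the median log2 difference of the list was 0.08, against -0.08 on the deposited values.

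**Figure D4:**
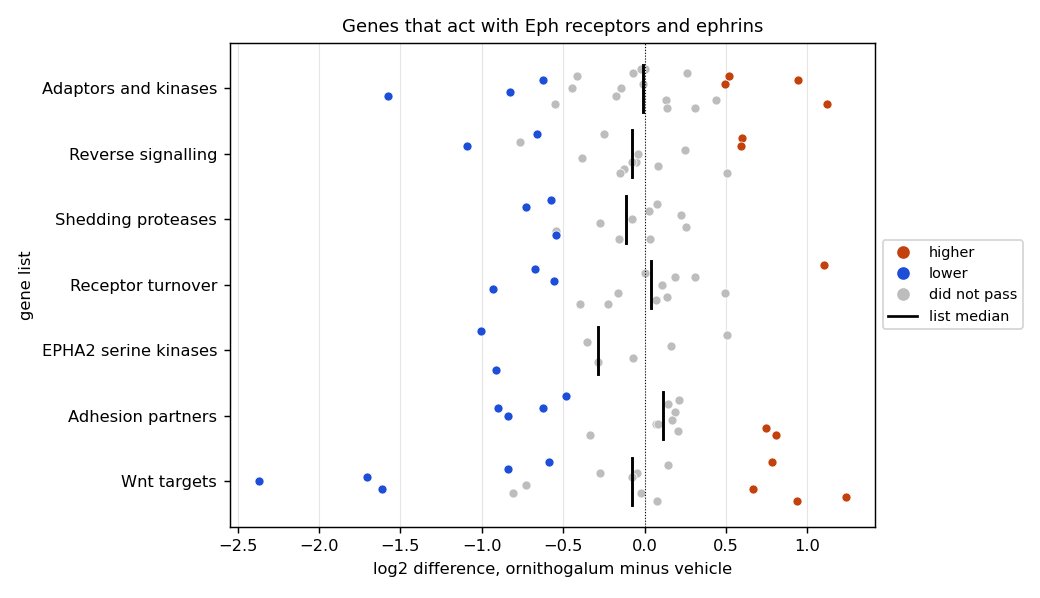
Log2 differences, ornithogalum minus vehicle, of genes in 7 lists that act with Eph receptors and ephrins, a point per gene, orange where called higher, blue where called lower and grey otherwise, with a black bar at each list's median. Called genes lie on both sides of 0 in most lists, and the shedding proteases and the EPHA2 serine kinases have called genes on the lower side only.

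The cells carried epithelial keratins and EPCAM on all arrays, with KRT8 at 10.37 and 10.38 with ornithogalum, against 10.44 and 10.59 with vehicle. Of 12 epithelial markers 0 rose and 5 fell (41.7% called), most of all MUC1 (5.69-fold) and KRT19 (2.63-fold). Their mean log2 value was 7.64 and 7.55 with ornithogalum, against 8.11 and 8.10 with vehicle. With brighter clusters only, 0 of these 12 rose and 6 fell, where 45.6% of all brighter clusters were called, so no excess is read from the list. Both treated arrays lay above both vehicle arrays for 3 markers (CLDN3, CLDN4 and ELF3, not called) and below them for 7. Over all clusters the groups did not overlap in 62.2%. Of 10 endothelial markers 1 (ESAM) rose, of 10 fibroblast markers 1 (PDGFRA), of 9 leukocyte markers 1 (CD68) and of 7 neuronal markers 0, and 0 of any of these lists fell. The mean log2 value of the endothelial markers was 3.68 and 3.60 with ornithogalum, against 3.42 and 3.37 with vehicle. No value in the table is 0, and the defining endothelial genes PECAM1, CDH5 and VWF did not pass, with log2 differences of -0.15, 0.02 and 0.22. A dimmer cluster of PECAM1 had 0.56 and did not pass either. Without ornithogalum replicate 2, 2 epithelial markers rose and 6 fell, and 3 endothelial, 3 fibroblast and 2 leukocyte markers rose. In RNA from whole cultures fewer cells of a type and less RNA per cell cannot be told apart. The ornithogalum arrays differed more from each other (pooled SD within the group 0.258) than the vehicle arrays (0.140), and their median log2 values were 4.48 and 4.62, against 4.71 and 4.70 with vehicle. The part of these differences in the results above was not tested.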

How the data were processed

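Expression was measured in 4 RNA samples, 2 ornithogalum and 2 vehicle. The authors deposited log2 values per transcript cluster, for which the submitters' processing notes name RMA and Affymetrix Expression Console 1.1, with other settings not given in the sources used here. Background subtraction and summarisation over probes compress differences of dim clusters, and the table carries no detection calls.

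The 2016 platform annotation gives 19460 clusters 1 symbol, 1754 several and 12083 none, and 19429 were matched to RefSeq by gene number. The 21214 clusters with a symbol were fitted together in limma 3.58.1 (R 4.3.3, lmFit and eBayes without trend), two-sided, with Benjamini-Hochberg adjustment over all of them and a threshold of 0.05, the meaning of "rose", "fell" and "called". Where a gene had several clusters, that of highest mean log2 value stood for it. The code was tested on simulated data. The labels call the samples biological replicates without naming separate experiments, and the spread behind each p-value may thus be technical. Arrays have no depth, and their number limits the precision. Deviations of same-numbered arrays correlated at -0.06 over clusters, so the numbers were not taken as pairs. Cross-hybridisation between related genes was not tested. A further list of signalling genes is not reported here. The genes and lists were chosen with earlier results of these data known. All 9 genes are named, and from each further list the called genes of largest difference, at most 4. Other genes were named after their values were seen.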

Additional observations from a re-analysis of the deposited data

How the results depend on the processing

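The 2 higher genes, EPHA2 and EFNA1, were called in 14 of 17 alternatives, and 0 were called higher without vehicle replicate 1, without vehicle replicate 2 or with unmoderated variances, so leaving out an array gave 0 to 2. The 3 lower genes became 0 to 4 when an array was left out, 0 with unmoderated variances, where 6 of the 9 genes had an unadjusted p under 0.05, and 1 at a threshold of 0.01. With the replicate number as a block 2 genes were higher and 2 lower, and 3302 clusters were called. The lower count was 4 with brighter clusters only, an intensity trend with or without a robust prior, or a threshold of 0.10, where EFNA4 joined and EFNA3 was called lower too. In the 7 alternatives that move a difference, only EFNB1 changed sign among the 9 genes, to -0.057 without ornithogalum replicate 2, while it was 0.19 without replicate 1. Brighter clusters only left out EPHB3 and EFNB1. Over all clusters tested the calls numbered 4076 as reported, 7058 without ornithogalum replicate 2, 2644 when all 33297 clusters were fitted, 1443 at a threshold of 0.01, 1 with unmoderated variances and 0 without either vehicle array. With 1 array in a group, that array is assumed to vary like the other group. Each cause beyond the changed number of arrays or clusters was not tested.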

Other observations

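Around the ephrin-A genes of chromosome 1, EFNA1 was the only gene of its neighbourhood that rose. This window, the 5 nearest measured protein-coding genes on each side of EFNA4, EFNA3 and EFNA1 in RefSeq's order, was drawn after the values of these 3 genes were seen. Of the 10 neighbours 0 rose and 2 fell, beside 6.57% of all clusters called higher and 12.6% called lower. With so few genes these counts lie near those shares and are no result about the neighbourhood. SLC50A1, a sugar transporter gene that follows EFNA1 directly, had 7.69 and 7.45 with ornithogalum, against 8.37 and 8.53 with vehicle, and fell 1.84-fold (limma adjusted p = 0.0159). The mucin gene MUC1 fell 5.69-fold. ADAM15, a metalloprotease gene next to EFNA4, had 6.14 and 6.25 with ornithogalum, against 6.10 and 6.09 with vehicle, a log2 difference of 0.10 that did not pass.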
